A study of Mus musculus with 13 samples.

Results

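The MYC-MAX-MXD network was examined by poly-A RNA-seq of mouse embryonic fibroblasts (MEFs) in 13 libraries, taken before and after spontaneous immortalization. Its 10 genes (Myc, Mycn, Mycl, Max, Mga, Mxd1, Mxd3, Mxd4, Mxi1 and Mnt) were chosen by name from the 55487 genes of the 2 deposited count tables, and all 10 passed the filter on low counts in each comparison. Wild-type (WT) cells gave 3 primary libraries (clones 3, 4 and 5, each from a separate embryo) and 3 libraries of the immortalized lines grown from the same clones. Cells labelled Prkd3-/- gave 3 primary libraries (clones 13, 14 and 15) and 4 immortalized lines (13, 13a, 14 and 15). How line 13a relates to line 13 is not given in the sources used here, nor is the age of the embryos or the part of Prkd3, a protein kinase D gene, that was removed. All cells were grown in the same medium, and every line arose by serial passage to senescence and outgrowth in more serum, so each line is an outgrowth of colonies and not a sample of the whole primary culture.

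MYC, MYCN and MYCL are transcription factors that bind the E-box CACGTG as dimers with MAX and raise genes of ribosome assembly, nucleotide synthesis and growth. The MXD proteins (MXD1, MXD3, MXD4 and MXI1, also called MXD2) and MNT compete for MAX and the same sites and recruit SIN3 and histone deacetylases. MGA also pairs with MAX and sits in a Polycomb complex. In fibroblasts MYC is a serum-response gene that drives entry into the cell cycle, and MXD proteins are known for their part in leaving it.

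The promoters of the members are shown first because the network can bind its own genes. RefSeq windows (GRCm38.p6, 250 bases before to 50 bases after the start) matched 9 of the 10 members, all but Myc, with 11 windows in all. The E-box CACGTG, which reads the same on both strands, occurred in 3 of the 11 windows (3 of the 9 members), against 7.15% of all 32851 promoter windows. The stretches below are written 5′ to 3′ on the strand of the gene. In the first 3 the capitals mark CACGTG. In Mycn they mark TTTGGCGC (0.514% of all windows) and TTTCGCGC (0.323%), E2F-type motifs searched on both strands, of which one copy of each overlap. A match of letters is a description and no evidence of binding.
Mxd4 (chr5:34187761-34187960, minus strand): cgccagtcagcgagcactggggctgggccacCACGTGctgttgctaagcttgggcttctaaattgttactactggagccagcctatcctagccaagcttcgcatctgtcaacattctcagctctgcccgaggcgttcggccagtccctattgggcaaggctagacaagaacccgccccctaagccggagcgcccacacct
Mnt (chr11:74830674-74830873, plus strand): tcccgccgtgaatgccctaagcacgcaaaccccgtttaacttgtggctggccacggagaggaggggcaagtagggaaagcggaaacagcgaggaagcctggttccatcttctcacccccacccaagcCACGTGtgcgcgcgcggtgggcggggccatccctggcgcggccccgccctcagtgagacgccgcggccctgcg
Max (chr12:76962234-76962263, minus strand): ggtgagcccggtCACGTGttagggggccga
Mycn (chr12:12941983-12942032, minus strand): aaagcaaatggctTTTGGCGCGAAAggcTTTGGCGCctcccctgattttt
The motif began at base 32 of the Mxd4 window, at base 128 of that of Mnt and at base 248 of that of Max, next to its start. Mycl and Mga held CACGCG, a weaker E-box, on one strand or the other (9.27% of all windows). GC boxes (GGGCGG) lay in 10 of the 11 windows, against 35.7% of all windows.

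Total counts ran from 35273408 to 100441756 per library, so 3 counts, taken as the lower limit, correspond to 0.0299 to 0.0850 CPM (counts scaled to library size by TMM over the 13 libraries). Reads of Prkd3 itself remained in libraries labelled Prkd3-/-, at 33.6 to 43.2 CPM in the primary ones and 43.8 to 61.0 CPM in the lines, against 69.2 to 73.7 CPM in WT primary and 73.6 to 93.7 CPM in WT lines. The WT primary libraries were nearly alike, with a median variation beyond sampling of 1.46 to 2.07% between pairs, against 5.51 to 13.2% between Prkd3-/- primary libraries, 11.998 to 15.4% between WT lines and 16.0 to 31.9% between Prkd3-/- lines. Line 13 stood apart, with the lowest summed level of 11 fibroblast markers (19577 CPM against 24998 to 71332 CPM elsewhere) and the highest of 10 cell division markers (2392 CPM against 222 to 1159 CPM). The 12 macrophage markers summed to 973 to 998 CPM in WT primary and 40.8 to 122 CPM in WT lines, and to 120, 1288 and 287 CPM in Prkd3-/- primary cultures 13, 14 and 15 against 10.8 to 221 CPM in their lines. In bulk RNA, fewer cells of a type and less RNA per cell cannot be told apart. Whether the Prkd3-/- clones came from separate embryos is not given in the sources used here, so there p-values measure only the spread between these samples, which may be technical. In WT cells the primary libraries varied even less (1.46 to 2.07%), though their clones came from separate embryos. P-values there thus rest mainly on the spread between the lines. How much of the WT primary spread is between embryos and not technical was not tested.

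Per kilobase of annotated exon, which allows genes to be compared, Myc had the highest mean level over the 13 libraries (25.3 CPM per kb, range 10.1 to 63.6), followed by Mxd4 (18.6, range 3.31 to 38.5), Max (16.3, range 13.1 to 22.9), Mxd3 (13.5, range 8.93 to 21.6) and Mnt (12.8, range 9.82 to 19.5). Mga (5.91), Mxi1 (3.14), Mycl (1.79), Mxd1 (1.52) and Mycn (0.390) were lower in mean level. The ranges of the first 5 overlapped, so their order did not hold in every library. Within the MYC family, Myc made up 82.5 to 99.0% of the summed level per kb in each library, Mycl 0.846 to 15.3% and Mycn 0.108 to 3.37%. Counting took no account of strand, and pairs over 2 genes went to both, so exon bases shared with a neighbour (6.06% for Mxd4, 4.43% for Mxd3, 2.84% for Mxi1, 0 for the other members) add reads from that neighbour.

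**Figure D1:**
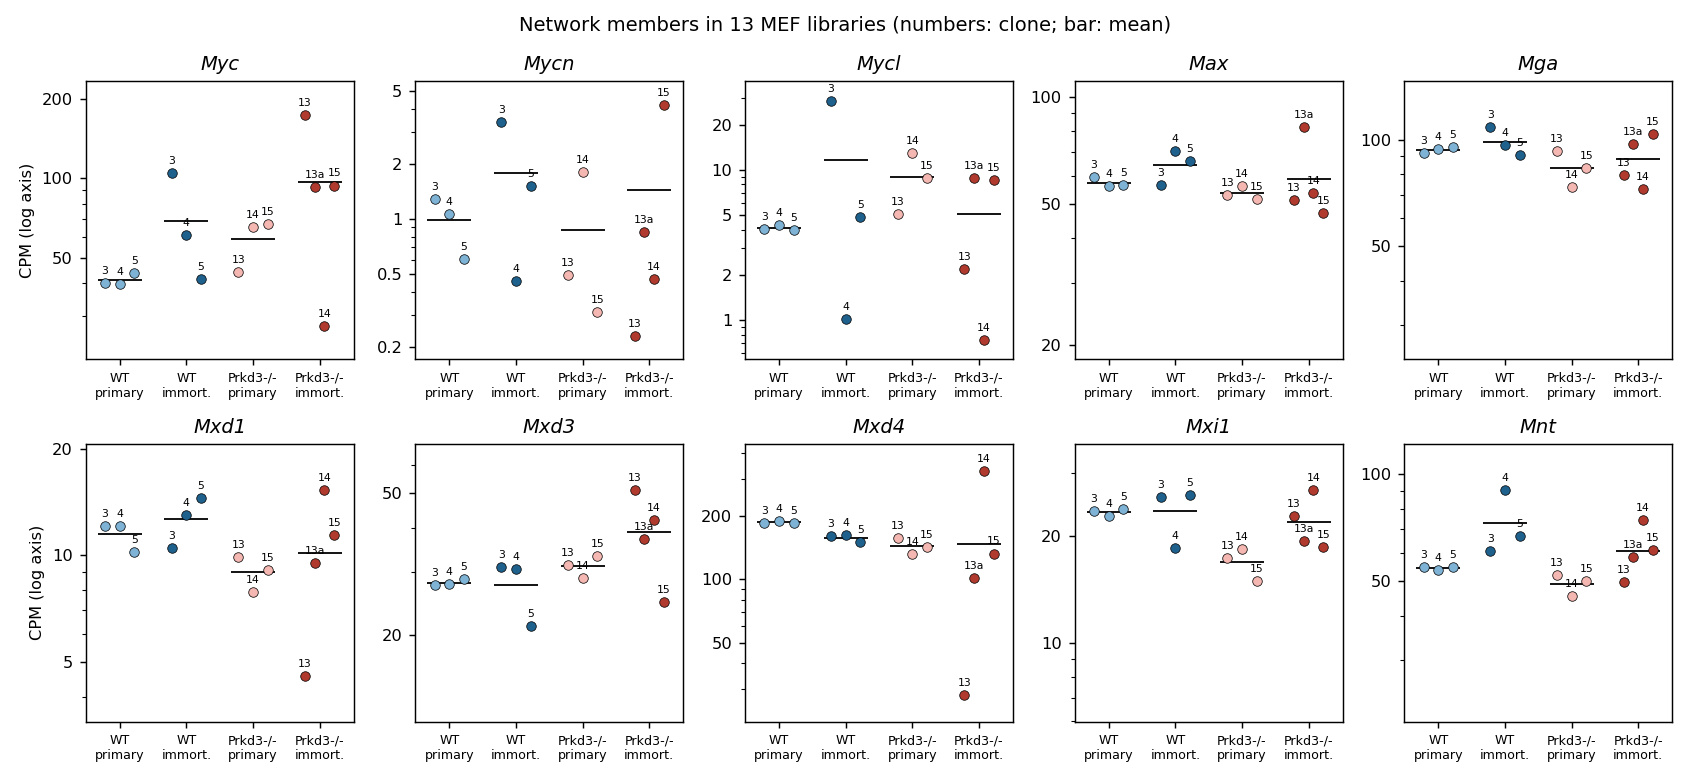
Level of each member (CPM, log axis) in each of the 13 libraries by group, with points labelled by clone and a bar at the group mean. Myc ran from 27.5 CPM in Prkd3-/- line 14 to 173 CPM in line 13, and Mxd4 from 28.1 CPM in line 13 to 327 CPM in line 14, while Max and Mga stayed within a narrow band.

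The question asked of each member was whether its level changed on immortalization within a genotype. In WT cells 0 of the 10 members passed the thresholds of the study (adjusted p under 0.01 and a |Log2FC| of at least 1, passed by 1.82% of 19836 genes tested) and 0 passed an adjusted p under 0.05 (5.27% of genes), by edgeR's quasi-likelihood test with Benjamini-Hochberg adjustment. At an unadjusted p under 0.05 there were 2 members, Mxd4 and Mnt, against 19.7% of all genes, and DESeq2 called 0 members among 2477 genes at an adjusted p under 0.05. In Prkd3-/- cells 0 of 10 members passed either rule, as did 0 of 20298 genes tested (0.0%), and at an unadjusted p under 0.05 there were 0 members against 6.56% of genes. DESeq2 called 353 genes there at an adjusted p under 0.05, of which 0 were members. With the clone as a block in WT cells, 0 genes passed the thresholds of the study and 214 passed an adjusted p under 0.05 (361 and 1045 without it), again with 0 members. The median Log2FC of the members was 0.15 in WT cells (all genes 0.04) and 0.24 in Prkd3-/- cells (all genes 0.07). Positive values numbered 8 of 10 and 9 of 10. Here and for the lists below, the share of positive values over all genes is not given, so such counts show no shift of the set. Scaled by library size alone, Mxi1 (-0.12) and Mga (-0.065) turned negative in WT cells.

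**Figure D2:**
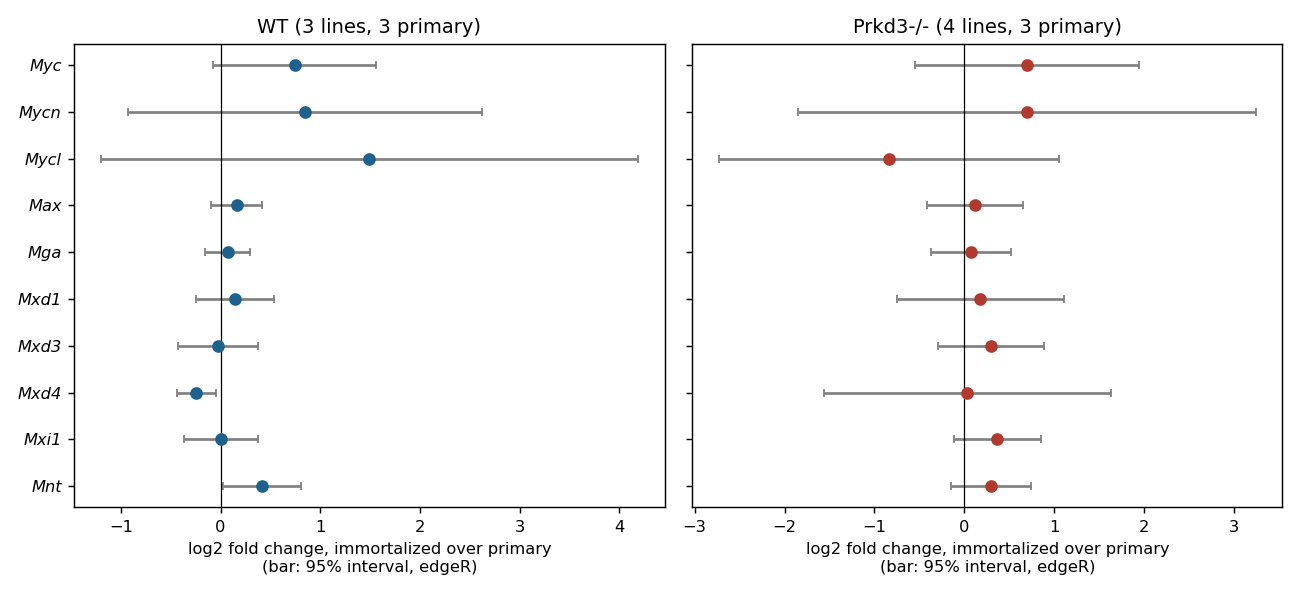
Log2 fold change (immortalized over primary) of each member in WT cells (left) and Prkd3-/- cells (right), with bars for the 95% interval from edgeR. The intervals lie off 0 for Mxd4 and Mnt in WT cells alone, before adjustment, and are widest for Mycn and Mycl.

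Myc, the activator that MEFs mainly use (chr15:61985391-61990374, ENSMUSG00000022346), measured 40.0, 39.7 and 43.7 CPM in WT primary clones 3, 4 and 5, and 105, 60.7 and 41.6 CPM in the lines grown from them. Line 3 was far above the primary range, line 4 was above it and line 5 lay inside it, so the groups overlapped. The Log2FC was 0.75 (SE 0.33, 95% interval -0.07 to 1.56) and did not pass (edgeR, adjusted p = 0.293). In Prkd3-/- cells Myc measured 44.2, 65.1 and 66.9 CPM in primary clones 13, 14 and 15 and 173, 92.7, 27.5 and 93.8 CPM in lines 13, 13a, 14 and 15. Lines 13, 13a and 15 exceeded all primary libraries, and line 14 was below all of them. The Log2FC was 0.70 (SE 0.53, interval -0.55 to 1.95, edgeR, adjusted p = 0.851), which became 1.01 without line 14 and 0.28 without line 13.

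The median level of genes near Myc did not keep the order of Myc over the lines, though both were lowest in line 14. The median log2 ratio to the primary mean over the 51 tested genes within 5 Mb of Myc, relative to all autosomal genes, was 0.05, 0.03 and 0.29 in WT lines 3, 4 and 5, where Myc itself stood at 1.36, 0.58 and 0.03. In line 13 Myc stood at 1.63 and its neighbours at 0.19, in line 13a at 0.68 and 0.06, in line 14 at -1.06 and -0.03 and in line 15 at 0.69 and 0.38. The neighbours were thus highest in line 15 and in WT line 5, where Myc was raised in the one and within the primary range in the other.

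Mycl, a paralog with a narrower tissue range (chr4:122995652-123002485), measured 4.03, 4.31 and 3.95 CPM in WT primary libraries and 28.8, 1.02 and 4.82 CPM in lines 3, 4 and 5. One line was above all primary libraries by a wide margin and another was below all of them. The Log2FC of 1.49 (SE 1.09, edgeR, adjusted p = 0.512) rested on line 3 and became -0.48 without it (0.36 with the clone as a block). Prkd3-/- primary libraries had Mycl at 5.08, 12.999 and 8.86 CPM and 2.19, 8.82, 0.735 and 8.54 CPM in lines 13, 13a, 14 and 15. Lines 13 and 14 were below every primary library and the other two lay within their range (Log2FC -0.83, SE 0.81, edgeR, adjusted p = 0.877). Relative to all autosomal genes, genes within 5 Mb of Mycl had medians of -0.44, -0.11, 0.02 and -0.64 in lines 13, 13a, 14 and 15. In WT lines 3, 4 and 5 their medians were -0.0011, -0.39 and -0.34. Over the rest of chromosome 4 as a whole, the medians were -0.37, -0.17, -0.20 and -0.60 in lines 13, 13a, 14 and 15. They were -0.09, -0.28 and -0.29 in WT lines 3, 4 and 5, so most of these shifts were not local to Mycl.

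Mycn, the paralog best known from neural and embryonic cells, was the lowest member. It measured 1.29, 1.07 and 0.608 CPM in WT primary libraries and 3.38, 0.457 and 1.51 CPM in lines 3, 4 and 5. The Prkd3-/- primary libraries had 0.496, 1.81 and 0.309 CPM, and lines 13, 13a, 14 and 15 had 0.229, 0.849, 0.469 and 4.21 CPM. Groups overlapped in both genotypes, with a Log2FC of 0.85 (SE 0.72) in WT cells and 0.70 (SE 1.09) in Prkd3-/- cells (edgeR, adjusted p = 0.573 and 0.914). Without WT line 3 the first became -0.0015, and without line 15 the second became -0.77.

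Max, the shared partner of both arms (chr12:76937269-76962201), measured 59.6, 56.0 and 56.6 CPM in WT primary libraries and 56.6, 70.3 and 66.0 CPM in lines 3, 4 and 5. The groups overlapped, and the Log2FC of 0.16 had an interval of -0.09 to 0.42 (edgeR, adjusted p = 0.452). Values were 53.1, 56.2 and 51.6 CPM in Prkd3-/- primary libraries, then 51.4, 82.2, 53.6 and 47.3 CPM in lines 13, 13a, 14 and 15, with line 13a alone above the rest (Log2FC 0.12, interval -0.42 to 0.66, edgeR, adjusted p = 0.935). Without line 13a that Log2FC became -0.10.

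Mga, the large MAX partner of the Polycomb complex PRC1.6, ranged from 90.6 to 108 CPM over the 6 WT libraries and from 72.5 to 103.7 CPM over the 7 Prkd3-/- libraries. The Log2FC was 0.07 (interval -0.16 to 0.30) in WT cells and 0.08 (interval -0.37 to 0.52) in Prkd3-/- cells (edgeR, adjusted p = 0.720 and 0.957). Of the 10 other genes of that complex, 0 passed an adjusted p under 0.05 in either genotype, with a median Log2FC of 0.01 in WT cells and 0.27 in Prkd3-/- cells.

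Mxd4, the most abundant antagonist (chr5:34173883-34187720, ENSMUSG00000037235), measured 185.8, 189.6 and 184.6 CPM in WT primary libraries and 160.4, 162 and 151 CPM in lines 3, 4 and 5. All lines were below all primary libraries (187 ± 2.59 against 158 ± 6.02 CPM, SD, n = 3 each), an arrangement found in 17.4% of genes tested in WT cells. The Log2FC of -0.24 (SE 0.08, interval -0.44 to -0.04) did not pass (edgeR, adjusted p = 0.181, DESeq2 0.0589), where 4.57% of genes were lower at an adjusted p under 0.05. Scaled by library size alone it was -0.38 with an adjusted p of 0.0432, and that scaling lowered the median of all genes to -0.10 from 0.04. The Prkd3-/- primary libraries had 156, 131 and 142 CPM of Mxd4, and lines 13, 13a, 14 and 15 had 28.1, 101, 327 and 133 CPM. Lines 13 and 13a were below every primary library, line 14 was above, and line 15 was within the range. The Log2FC was 0.04 (SE 0.68, edgeR, adjusted p = 0.997), with -0.72 without line 14 and 0.38 without line 13. The 163 tested genes within 5 Mb of Mxd4 had medians of 0.21 in line 13 and -0.14 in line 14, opposite in sign to Mxd4 at -2.30 and 1.199.

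Mnt, the antagonist that most cell types carry and that is a main counterpart of MYC in MEFs (chr11:74830920-74845725, ENSMUSG00000000282), measured 54.8, 53.7 and 54.8 CPM in WT primary libraries and 61.0, 90.3 and 66.9 CPM in lines 3, 4 and 5. All lines were above all primary libraries (54.4 ± 0.686 against 72.7 ± 15.5 CPM, SD, n = 3 each), as were those of 13.9% of genes tested. The Log2FC was 0.42 (SE 0.16, interval 0.03 to 0.81, edgeR, adjusted p = 0.223, DESeq2 0.213). Prkd3-/- primary libraries had Mnt at 52.1, 45.4 and 49.9 CPM, against 49.7, 58.4, 74.5 and 61.2 CPM in lines 13, 13a, 14 and 15. Here 3 of the lines exceeded all primary libraries and line 13 lay among them (Log2FC 0.30, SE 0.19, edgeR, adjusted p = 0.839).

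The macrophage markers moved with the WT comparison, all 12 lower in every line and 11 of them at an adjusted p under 0.05 (edgeR), with C1qa, Cd68 and Cx3cr1 at the smallest p. Of the tested markers of other types, 1 of 4 endothelial (Tek), 2 of 2 epithelial (Krt18 and Cdh1) and 0 of 11 fibroblast markers passed in WT cells, all of these lower, and 0 passed in Prkd3-/- cells. In WT cells 4.57% of all genes were lower at that threshold. Both epithelial calls were at low levels, with means of 1.55 and 0.086 CPM for Krt18 and 0.707 and 0.130 CPM for Cdh1 in WT primary libraries and lines. The rest of the 5 epithelial markers did not pass the filter on low counts there. In the Prkd3-/- primary culture richest in macrophage markers (clone 14, 1288 CPM), Mxd4 and Mnt were at their lowest of the 3 primary cultures, at 131 and 45.4 CPM. This was not particular to them, since Mxd1, Mxd3 and Mga were also lowest there. Mycn, Mycl, Max and Mxi1 were at their highest in that culture, and Myc lay between the others. The part of these markers in the WT values of Mxd4 and Mnt was not tested.

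Mxd3, which unlike its relatives is known from cells in S phase, measured 27.6, 27.9 and 28.7 CPM in WT primary libraries and 31.0, 30.6 and 21.1 CPM in lines 3, 4 and 5. Lines 3 and 4 were above the primary range and line 5 was below it. Without line 5 the Log2FC of -0.02 (SE 0.16, edgeR, adjusted p = 0.955) became 0.14. The Prkd3-/- cells had 31.4, 28.9 and 33.3 CPM of Mxd3, then 51.1, 37.3, 42.2 and 24.8 CPM in lines 13, 13a, 14 and 15. Lines 13, 13a and 14 exceeded all primary libraries and line 15 was below them (Log2FC 0.30, SE 0.25, edgeR, adjusted p = 0.859). The lines did not come in the same order for Mxd3 as for the cell division markers, though the extremes matched. Line 13 had the highest Mxd3 and the highest summed markers (2392 CPM). WT line 5, with the lowest Mxd3 of the 7 lines, had the lowest markers (222 CPM). Prkd3-/- line 15, with the next lowest Mxd3, was an exception at 1159 CPM, the second highest of the 13 libraries.

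Mxi1 measured 17.3, 18.4 and 14.95 CPM in Prkd3-/- primary libraries and 22.8, 19.4, 26.9 and 18.6 CPM in lines 13, 13a, 14 and 15. All lines were above all primary libraries, as for 4.19% of genes tested there (5.26% had all lines below, 9.45% either), the only member without overlap in that genotype, and the Log2FC of 0.37 (SE 0.21, interval -0.12 to 0.85) did not pass (edgeR, adjusted p = 0.827). In WT cells it measured 23.6, 22.7 and 23.8 CPM, then 25.7, 18.5 and 26.1 CPM, with line 4 below and the others above the primary range (Log2FC 0.01, interval -0.37 to 0.38, edgeR, adjusted p = 0.990).

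Mxd1, which rises when many cell types differentiate, measured 12.1, 12.1 and 10.2 CPM in WT primary libraries and 10.5, 12.97 and 14.5 CPM in the lines. Prkd3-/- cells had 9.90, 7.89 and 9.09 CPM, then 4.56, 9.49, 15.3 and 11.4 CPM in lines 13, 13a, 14 and 15. Groups overlapped in both genotypes, and lines 13 and 14 were again the extremes (Log2FC 0.14 and 0.18, edgeR, adjusted p = 0.673 and 0.946). Without line 14 the Prkd3-/- value became -0.09.

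The spread between the 7 immortalized lines differed widely among members. The SD of log2 CPM over the 7 lines was 1.88 for Mycl, 1.54 for Mycn, 1.08 for Mxd4, 0.89 for Myc and 0.59 for Mxd1, against a median of 0.54 over 21197 genes. It was 0.44 for Mxd3, 0.28 for Max and for Mnt, 0.24 for Mxi1 and 0.21 for Mga, below that median. As CPM, highest over lowest line, the range was 39.3-fold for Mycl, 18.4-fold for Mycn, 11.6-fold for Mxd4 and 6.29-fold for Myc, but 1.74-fold for Max and 1.49-fold for Mga. Mycn was counted 11 to 312 times per library. Over the 6 primary libraries the SD was 0.35 for Myc, 0.23 for Mxd4 and 0.07 for Max, with a median of 0.28 over all genes. These SDs, over the lines and over the primary libraries, mix both genotypes and so hold any gap between them. Within WT primary libraries the SD was 0.08 for Myc, 0.02 for Mxd4 and 0.05 for Max. Within Prkd3-/- primary libraries it was 0.34, 0.13 and 0.06.

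The make-up of the antagonists was steady in primary cells and differed between lines. Of the summed MXD and Mnt level per kb, Mxd4 held 43.4 ± 0.550% (SD, n = 3) in WT primary cells and 36.5 ± 2.07% (n = 3) in WT lines, and Mnt held 23.2 ± 0.328% and 30.5 ± 4.33%. In Prkd3-/- primary cells Mxd4 held 38.0 ± 1.16% (n = 3). In line 13 Mxd4 held 8.36% of the sum and Mxd3 held 54.5%, while in line 14 Mxd4 held 49.0%.

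The ratio of the MYC family to the MXD family plus Mnt, per kb, was 0.319, 0.316 and 0.340 in WT primary libraries and 0.927, 0.405 and 0.361 in lines 3, 4 and 5. Each WT line lay above the primary range, line 5 by little. In Prkd3-/- cells the ratio was 0.377, 0.672 and 0.597 in primary libraries, then 1.62, 0.822, 0.133 and 0.868 in lines 13, 13a, 14 and 15. Lines 13, 13a and 15 were above all primary libraries and line 14 was below the whole series. The antagonist sum itself was 50.6 to 50.7 CPM per kb in WT primary libraries, 47.1 to 56.1 in WT lines and 41.3 to 46.9 in Prkd3-/- primary libraries. Line 14 had the highest sum (78.5) and line 13 the lowest (39.6). The ratio carries no test because the genes were chosen with earlier results known.

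**Figure D3:**
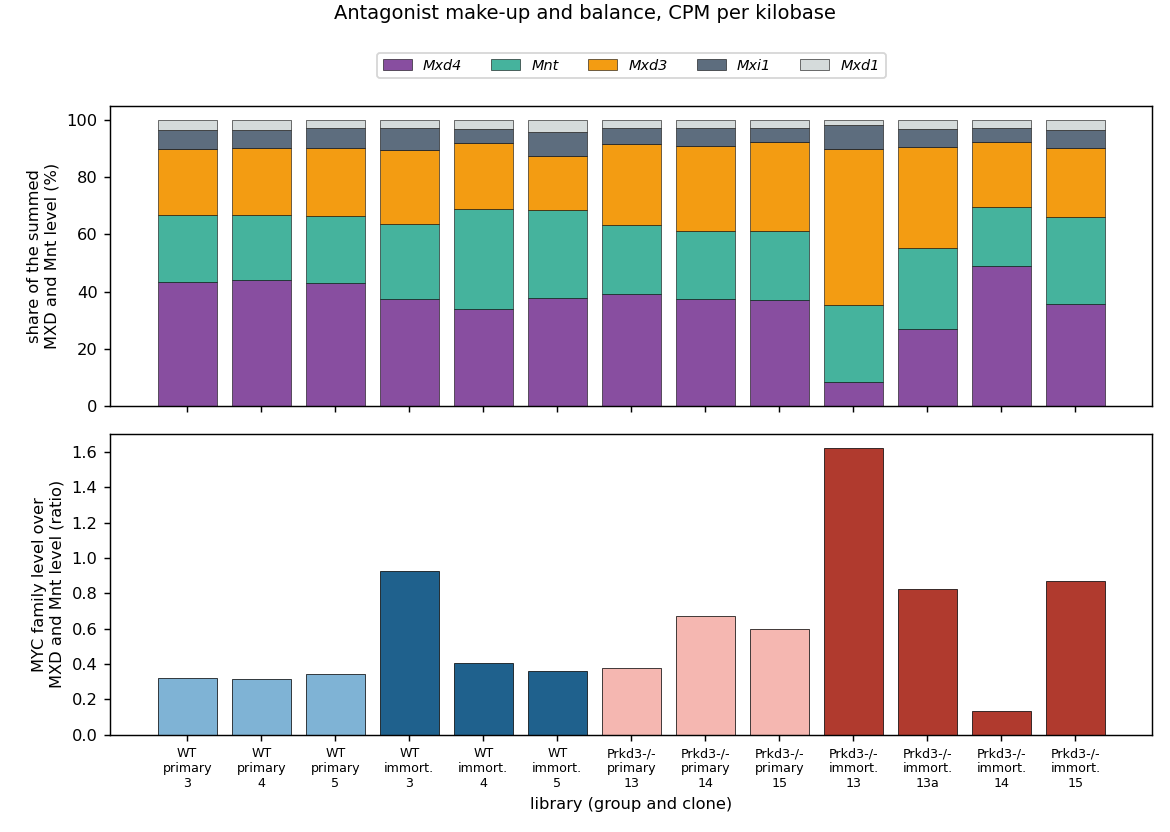
Top, share of each gene in the summed MXD and Mnt level (CPM per kb, %) in each library. Bottom, ratio of the summed MYC family level to that sum, from 0.133 in Prkd3-/- line 14 to 1.62 in line 13, with the WT primary libraries between 0.316 and 0.340.

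Lines 13 and 14, both labelled Prkd3-/-, were the extremes for Myc, Mxd4 and Mxd1, in opposite senses. Line 13 had the highest Myc and Mxd3 and the lowest Mxd4, Mxd1 and Mycn of the 7 lines. Line 14 had the lowest Myc and Mycl and the highest Mxd4, Mxd1 and Mxi1. Line 13a did not share the profile of line 13: it had 101 CPM of Mxd4 against 28.1, and 92.7 CPM of Myc against 173.

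Known MYC-activated genes were followed through a list of 45, among them the nucleolar genes Ncl, Npm1 and Fbl and the polyamine enzyme gene Odc1. In WT cells 36 of 45 had a positive Log2FC (median 0.16, all genes 0.04), 15 had an unadjusted p under 0.05 (19.7% of all genes had) and 0 passed an adjusted p under 0.05 (edgeR). Among the same genes 41 of 45 in Prkd3-/- cells were positive (median 0.41, all genes 0.07), with 0 at an unadjusted p under 0.05 (6.56% of all genes). The lines differed among themselves. The median log2 ratio to the primary mean of the same genotype was 1.24 in line 13 (42 of 45 genes above that mean), 0.39 in line 15 (32 of 45), 0.33 in WT line 3 (41 of 45), 0.26 in line 13a (35 of 45), 0.12 in WT line 4 (31 of 45) and 0.04 in WT line 5 (25 of 45). In line 14 it was -0.49, with 4 of 45 above. Line 13 with the highest Myc had the highest median, and line 14 with the lowest Myc had the lowest.

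The median ratio of the 10 cell division markers was 1.69 in line 13, 0.57 in line 15, 0.14 in WT line 3, 0.01 in line 14, -0.31 in WT line 4, -0.40 in line 13a and -1.48 in WT line 5. The first 3 lines came in the same order as for the MYC-activated genes, and the other 4 did not. By genotype, 10 of 10 markers had a negative Log2FC in WT cells (median -0.42) and 10 of 10 a positive one in Prkd3-/- cells (median 0.61), with 0 at an adjusted p under 0.05 in either (edgeR) and 1 in each at an unadjusted p under 0.05. The part of cell division in the levels of the MYC-activated genes was not tested.

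**Figure D4:**
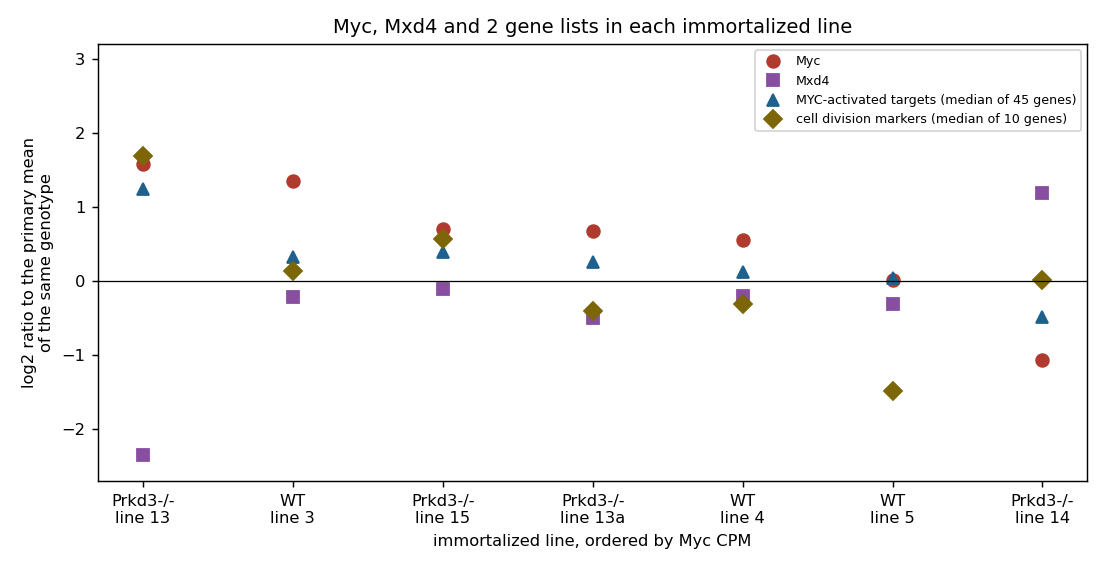
Log2 ratio to the primary mean of the same genotype in the 7 immortalized lines, ordered by Myc CPM, for Myc, Mxd4 and the medians of 45 MYC-activated genes and of 10 cell division markers. Line 13 lies at 1.58 for Myc and -2.35 for Mxd4, and line 14 at -1.07 and 1.19.

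Of 15 MYC-repressed genes, 14 were tested. In WT cells 1 rose, the growth arrest gene Gadd45a, from 11.8 ± 0.310 to 31.7 ± 11.5 CPM (SD, n = 3 each, Log2FC 1.43, SE 0.28, edgeR, adjusted p = 0.0471), against 0.696% of all genes higher at that threshold, and 19.1% of its exon bases are shared with E230016M11Rik. That call was lost with the clone as a block (edgeR, adjusted p = 0.159) and without any 1 of the 6 libraries but line 3 (adjusted p = 0.0531 to 0.210). In Prkd3-/- cells 0 passed. The other lists of the pathway gave 0 genes at an adjusted p under 0.05 in either genotype: 12 MYC coactivators and partners (median Log2FC 0.09 in WT cells, 0.22 in Prkd3-/- cells), 13 regulators of MYC protein stability (0.02 and 0.14) and 15 SIN3 and histone deacetylase corepressor genes used by MXD and MNT (0.04 and 0.25). Of the parallel MLX branch, Mlx and Mlxip were tested and 0 passed. Mlxip, chosen for its values after they were seen, measured 48.3 ± 0.762 CPM in WT primary libraries and 58.9 ± 4.401 CPM in WT lines (SD, n = 3 each, Log2FC 0.29, SE 0.08, edgeR, adjusted p = 0.140).

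The effect of immortalization was compared between the genotypes as an interaction term in a fit of the 13 libraries. It was past an adjusted p of 0.05 for 0 members and for 0 of 21197 genes (0.0%, edgeR), with 841 genes (3.97%) at an unadjusted p under 0.05, among which were 0 members, and 37 genes by DESeq2. The member with the smallest p was Mycl, with a difference in Log2FC (Prkd3-/- minus WT) of -2.32 (SE 1.42, interval -5.44 to 0.80, edgeR, unadjusted p = 0.131). For Myc the difference was -0.03 with an interval of -1.56 to 1.503, and for Mxd4 it was 0.28 with an interval of -1.47 to 2.03, so these intervals hold differences of more than 2-fold either way. For Max (-0.61 to 0.54) and Mga (-0.46 to 0.48) the intervals were narrower.

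The genes whose centred log2 CPM profile over the 13 libraries lay closest to each member were found by the root mean square (RMS) difference. For Myc these were Mapk6, an atypical MAP kinase gene (RMS difference 0.18), Ppa1, a pyrophosphatase gene (0.24), and Khdrbs3, an RNA-binding protein gene (0.25), where the median gene differed by 0.85. Closest to Mxd4 was Gm42846 (0.06), which overlaps it in 514 exon bases and so shares read pairs, then 4932443L11Rik (0.24) and Synpo (0.25). Closest to Mxd1 was Parp4 (0.12), to Mxd3 Abt1 (0.10), to Mnt Dnajb12 (0.08), to Max Slc35c2 (0.10), to Mga Acbd3 (0.09) and to Mxi1 Gm15537 (0.11). For Mycn (Cldn15, 0.66) and Mycl (Snora16a, 0.58) no gene came close. Of the genes named, Khdrbs3, Abt1, Snora16a and Gm42846 lie on the chromosome of their member, and the rest lie on other chromosomes. Whole chromosomes also differed between lines. In line 15 the median was -0.60 for chromosome 4 and 0.55 for chromosome 6, relative to all autosomal genes. The part of shared chromosomes in these likenesses was not tested. The likenesses are across libraries that share depth and state, and say nothing of shared function.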

How the data were processed

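The deposited values were raw counts per gene. The authors mapped read pairs of the WT libraries to mm10 with STAR 2.7.10a and counted them with featureCounts of Subread 2.0.6 on Ensembl release 102 genes. The steps behind the Prkd3-/- counts are not given in the sources used here, but that table lists the same genes and lengths. Of 55487 identifiers, 55141 matched a symbol. Each genotype was fitted with edgeR 4.0.16 (quasi-likelihood, TMM, filterByExpr, robust estimation, R 4.3.3) by state, and the genotypes were compared as an interaction. The SE is the Log2FC divided by the square root of F. Log2 ratios used a prior count of 1. Fits were run on counts simulated with the same spread for all genes and groups. The groups here differ in spread, so that run does not test the fits under these conditions. WT primary and immortalized samples of 1 clone number come from 1 embryo, and their deviations from the group means correlated at -0.03, 0.02 and -0.04. In Prkd3-/- cells lines 13, 14 and 15 correlated with the primary culture of their number at 0.14, 0.088 and 0.040. Cultures of other numbers reached higher values, with line 13 at 0.31 to primary 15 and line 14 at 0.094 to primary 13. Line 15 correlated most with its own number. Line 13a correlated at -0.28 with primary 13 and at 0.34 with primary 14. The clone block placed line 13a with clone 13, a relation that the sources used here do not give. Alternatives were DESeq2 1.42.0, limma 3.58.1, other scalings and filters, a joint fit, a clone block, lines 13 and 13a summed, and each library left out. The members, gene lists and tests were chosen with earlier results of these data known. The text names all members, the 3 genes of each list with the smallest adjusted p under 0.05 in each direction, the genes nearest each member in profile, and Pvt1 and Prkd3. Mlxip was named outside this rule, and other genes named as examples of a list carry no values. Limits at 3 counts cover counting error only.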

Additional observations from a re-analysis of the deposited data

Results flagged for a closer look

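Mycn in Prkd3-/- line 15, at 4.21 CPM, lay far from the other lines of its group, which had 0.229, 0.849 and 0.469 CPM. It was the only one of the 10 members with such a gap in the group of 4 lines. Chance flags about 1 group in 20 where values are normally distributed, so 1 flag among 10 members is not unusual. The rule was applied to CPM and not to log2 values. The gap took up 0.844 of the range.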

How the results depend on the processing

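No member changed its side of a threshold except Mxd4 in WT cells, called (1 member) when libraries were scaled by size alone. In WT cells the 361 genes past the thresholds of the study became 1361 with DESeq2, 157 with at least 10 counts in every library, 184 with limma, 0 in the joint fit of 13 libraries, 0 with the clone as replicate block and 868 at an adjusted p under 0.05. The 1045 genes at an adjusted p under 0.05 at any fold became 2477 with DESeq2, 459 with at least 10 counts, 112 in the joint fit and 214 with the clone as replicate block. With 1 library left out these ran from 48 (without primary 3) to 743 (without line 5) and from 287 (without primary 4) to 2557 (without line 5). Without primary 5 they were 66 and 297, and without line 3 the second was 2495. In Prkd3-/- cells the 0 genes past the thresholds became 190 with DESeq2 and 1 in the joint fit, and the 0 at an adjusted p under 0.05 became 353 with DESeq2, 1 without a filter, 1 with limma and 34 in the joint fit, but 0 with any library left out. The 0 genes of the interaction became 37 with DESeq2 and 0 to 2 with 1 library left out, the 2 without line 14. The call of Gadd45a in WT cells was also lost by library size alone (edgeR, adjusted p = 0.0611), with at least 10 counts (0.0710) and in the joint fit (0.344). The cause was not tested.

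Signs of small values turned. For Mxi1 in WT cells they were -0.12 by library size alone, -0.022 with at least 10 counts, -0.0050 with limma and -0.012 with the block. For Mga in WT cells it was -0.065 by library size alone. For Mxd4 in Prkd3-/- cells they were -0.45 with limma and -0.22 with the block. For the difference between genotypes, Mga was -0.0066 with DESeq2, -0.0045 with its size factors, -0.044 without a filter and -0.0088 with the block. By library size alone, which moved the median difference of all genes to 0.18 from 0.06, Myc was 0.091, Max 0.086 and Mnt 0.025. Mxd1 was -0.0082 without a filter and -0.029 with limma, Mxd4 was -0.20 with limma, and Mycn was 0.13 with lines 13 and 13a summed. The block otherwise changed no call of a member.

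With 1 library left out, WT values ran from -0.0015 to 1.30 for Mycn, -0.48 to 2.04 for Mycl, -0.077 to 0.15 for Mxi1 and -0.11 to 0.14 for Mxd3. Prkd3-/- values ran from -0.77 to 1.82 for Mycn, -0.10 to 0.21 for Max, -0.088 to 0.43 for Mxd1, -0.72 to 0.38 for Mxd4 and -0.0099 to 0.16 for Mga. Differences ran from -0.47 to 0.38 for Myc, -1.62 to 0.97 for Mycn, -0.24 to 0.055 for Max, -0.24 to 0.059 for Mnt, -0.22 to 0.29 for Mxd1, -0.47 to 0.62 for Mxd4 and -0.073 to 0.097 for Mga. The mean log2 balance of the MYC family to its antagonists differed between WT lines and primary cells by 0.66 per kb and by 0.73 on plain counts. In Prkd3-/- cells it differed by 0.23 and 0.32. The SD of the balance per kb between lines was 0.74 in WT cells and 1.56 in Prkd3-/- cells. The wide spread between lines, with 3 or 4 per group, limits what could be detected.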

Other observations

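Pvt1, a long noncoding RNA gene next to Myc, did not follow Myc from line to line. It measured 15.3 to 16.0 CPM in WT primary libraries, where Myc measured 39.7 to 43.7 CPM. Its highest values were 26.7 CPM in WT line 5, with 41.6 CPM of Myc, and 26.1 CPM in Prkd3-/- line 15, with 93.8 CPM of Myc. Its lowest was 11.8 CPM in line 13, where Myc was highest at 173 CPM. Neither genotype passed (edgeR, Log2FC 0.21 and 0.13, adjusted p = 0.737 and 0.955).

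The ratio of Myc to its partner Max, per kb, was 0.889 to 1.02 in WT primary libraries. It was 2.45, 1.14 and 0.835 in WT lines 3, 4 and 5, and 4.46, 1.49, 0.680 and 2.63 in Prkd3-/- lines 13, 13a, 14 and 15, against 1.10 to 1.72 in Prkd3-/- primary libraries. In line 13 the transcript of Myc was thus several times more abundant per kb than that of Max, and in line 14 less abundant.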
